A study of Mus musculus with 8 samples.

Results

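Inflammasomes are protein complexes of myeloid cells that assemble in the cytosol when a sensor protein meets a microbial product or a sign of cell damage. The sensor recruits the adaptor ASC, the adaptor recruits pro-caspase-1, and active caspase-1 matures IL-1β and IL-18 and cleaves gasdermin D, whose amino-terminal fragment forms pores in the plasma membrane and so carries out the lytic cell death called pyroptosis. In mice a second route runs through Casp4, also called caspase-11, which senses cytosolic lipopolysaccharide and cleaves gasdermin D itself.

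The expression of 10 inflammasome and pyroptosis genes was examined by name in a table of 12823 genes from mouse MLL-AF9 leukemia cells. Of these, 8 were measured and tested, namely the sensors Nlrp3, Nlrp1b and Nlrc4, the adaptor gene Pycard, the caspases Casp1 and Casp4, the executioner Gsdmd and the receptor antagonist Il1rn. Il1b and Il18, which encode the cytokines that caspase-1 matures, were not analysed here.

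MLL-AF9, a fusion oncogene that causes acute myeloid leukemia (AML), was introduced together with GFP into mouse bone marrow progenitors, and the RNA of GFP-positive leukemia cells sorted from bone marrow was sequenced. In the group called new AML, 4 libraries hold freshly made leukemia cells, which arose in sublethally irradiated recipients. In the group called aggressive AML, 4 libraries hold cells after 5 rounds of serial transplantation into recipients that were not irradiated. Both kinds of cell were grown in C57BL/6 mice before the sort. The study describes the mice of this RNA-seq as male and those of its experiments in general as young adults. All cells of both groups carry the same fusion and no group without it was compared. The labels call the replicates biological but do not say whether each came from a separate primary leukemia, so p-values measure the spread between these libraries. Sequencing batches were not given in the sources used here.

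Total counts ranged from 7805544 to 9697777 per library. Levels are given in CPM, the read count of a gene relative to the total of its library, with totals adjusted by edgeR's TMM factors, which center most genes between libraries. All 7 genes listed for the identity of MLL-AF9 myeloid cells were detected, among them Hoxa9 at 292 to 308 CPM in new AML and 302 to 359 CPM in aggressive AML, but 3 of them differed between the groups. The stem and progenitor genes Kit (log2 fold change 0.65, edgeR adjusted p = 0.0014) and Meis1 (0.45, adjusted p = 0.0117) were higher in aggressive AML and the myeloid integrin gene Itgam (-0.61, adjusted p = 0.00122) was lower, each with no overlap, and their part in the results on the members was not tested. The 4 Y-linked genes Ddx3y, Eif2s3y, Kdm5d and Uty summed to between 251 and 287 CPM in the new AML libraries and had 0 counts in every aggressive AML library, although the aggressive cells are described as derived from the newly generated ones. A difference that goes with this one and a difference that goes with serial transplantation cannot be told apart for any gene reported below. In RNA from a bulk sort, fewer cells of a type and less RNA per cell cannot be told apart either.

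Levels were compared with edgeR's quasi-likelihood test over all 12494 genes that passed a filter on low values, with Benjamini-Hochberg adjustment, and a gene was called at an adjusted p under 0.05. Nlrp1b, Il1rn and Gsdmd were lower in aggressive AML, whereas Nlrp3, Nlrc4, Pycard, Casp1 and Casp4 did not pass the test. Thus 3 of 8 members were called lower, where 10.2% of all tested genes were, and 0 of 8 were called higher, where 8.15% of all tested genes were. Among these 3, Il1rn passed the filter (1 CPM in 4 libraries) only through new AML, the group where it was higher. Its call and its lack of overlap are therefore not independent of the filter. No member had a higher level in aggressive AML at an unadjusted p under 0.05, and 0 were called higher with DESeq2 or limma. The log2 fold change of aggressive AML over new AML was below 0 in 8 of 8 members, as it was in 49.9% of all tested genes. Its median was -0.28 over the members and 0.00 over all tested genes. Every aggressive AML library lay below every new AML library in 2 members, Nlrp1b and Il1rn, and in 12.0% of all tested genes. The members' summed level ranged from 365 to 428 CPM in new AML and from 318 to 331 CPM in aggressive AML. Most of this sum is Gsdmd, Pycard and Casp1 (means of 126, 118 and 72.7 CPM in new AML), of which Pycard and Casp1 were not called. The sum is therefore not a measure of a fall shared by the members.

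**Figure D1:**
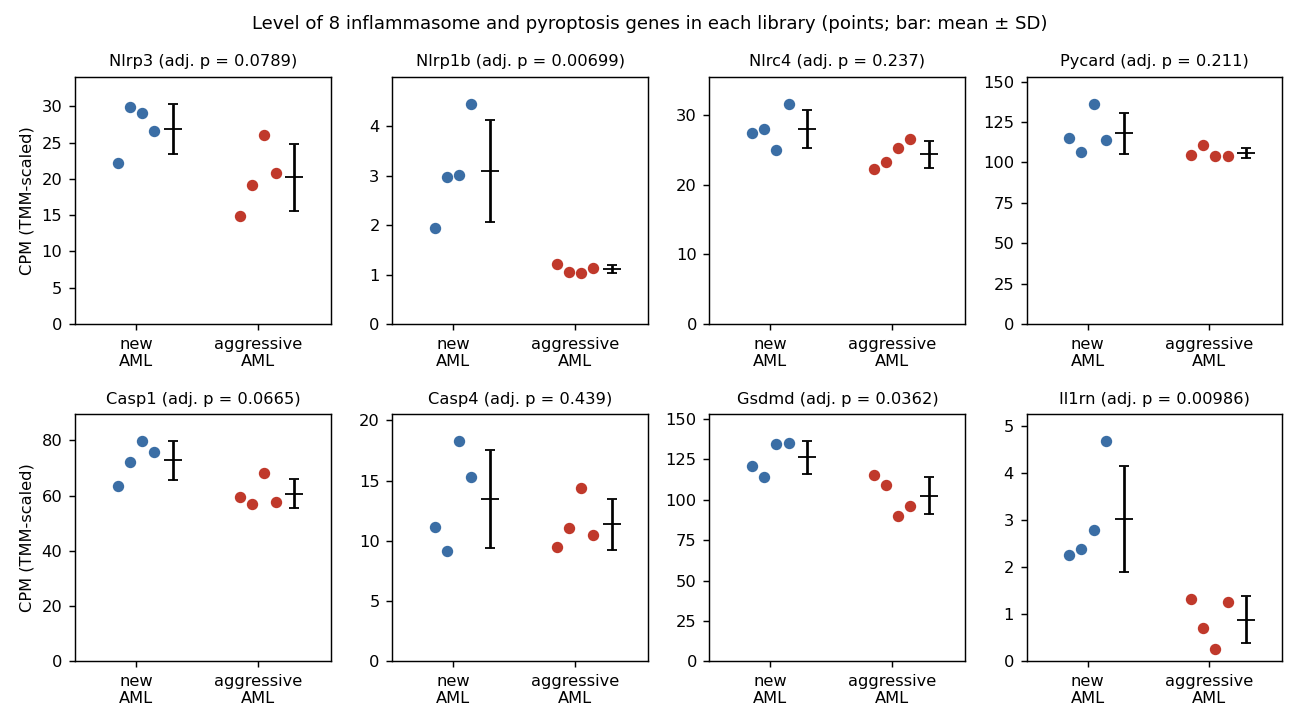
Level of each of the 8 members in every library, as TMM-scaled CPM on an axis that starts at 0, with 1 point per library and a bar for the mean ± SD of 4 libraries. The groups are apart in Nlrp1b and Il1rn, touch at 1 library in Gsdmd (115 CPM in an aggressive AML library against 114 CPM in a new AML library) and overlap in the other members.

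Per kilobase of transcript, Gsdmd was the most abundant member in both groups, with a mean of 70.3 CPM per kilobase in new AML and 57.2 in aggressive AML. It was followed by Casp1 at 48.6 and 40.5 CPM per kilobase and by Pycard at 31.1 and 27.8. The place of Pycard is uncertain, because only 579 of the 3800 bases of its annotated transcript are coding. Casp4 (9.39 and 7.92 CPM per kilobase), Nlrc4 (8.89 and 7.72) and Nlrp3 (6.69 and 5.03) came next. The ranges of Casp4 and Nlrc4 overlapped within each group, while the range of Nlrp3 lay below that of Nlrc4 in both. Il1rn (1.52 and 0.446 CPM per kilobase) and Nlrp1b (0.750 and 0.269) were the least abundant members, and their ranges overlapped in aggressive AML alone. Per kilobase, the executioner and caspase-1 thus exceeded each of the 3 sensors among the members. This does not hold for every sensor, since Mefv, which is not a member, had 57.1 and 34.8 CPM per kilobase. It was above Casp1 in new AML and below it in aggressive AML.

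Among the sensors, Nlrp1b belongs to a family known for detecting proteolytic activity. It lies on chromosome 11 (71153102 to 71230733 on the minus strand, GRCm38), next to its paralog Nlrp1a (71092236 to 71144704 on the same strand). The coding sequences of these neighbours were 85.92% identical over 3531 aligned bases, which bears on how their reads can be told apart. The stretch of 60 bases below, within exon 2 of each gene, is shown because the 7 bases printed in capitals differ between the genes and so mark reads of one or the other.
Nlrp1b (chr11:71181888-71181947): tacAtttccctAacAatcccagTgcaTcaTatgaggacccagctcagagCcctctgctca
Nlrp1a (chr11:71123289-71123348): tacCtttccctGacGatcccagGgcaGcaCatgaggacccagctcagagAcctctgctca

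Of the 4082 stretches of 50 bases in the Nlrp1b transcript, 55 (1.35%) were shared exactly with Nlrp1a or the pseudogene Nlrp1c-ps, so that most but not all reads can be assigned to it.

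Nlrp1b had 19, 25, 27 and 40 counts in the new AML libraries, or 1.95, 2.97, 3.01 and 4.46 CPM. In the aggressive AML libraries it had 10, 9, 8 and 10 counts, or 1.20, 1.06, 1.04 and 1.14 CPM. Every aggressive AML library was thus below every new AML library, although all of them rest on few reads. Nlrp1b fell from 3.10 ± 1.03 CPM to 1.11 ± 0.0766 CPM (SD, n = 4 each), or to 35.8% of its level in new AML. Its log2 fold change was -1.46 (SE 0.34, edgeR adjusted p = 0.00699). It was also called when any 1 library was left out. Nlrp1a, of the same sensor family, was more abundant and fell as well, from 31.9 ± 1.89 CPM to 17.0 ± 5.33 CPM (SD, n = 4 each), with a log2 fold change of -0.90 (SE 0.17, edgeR adjusted p = 0.00202) and no overlap between the groups. The summed reads of both genes, an alternative added after the data were seen, had a log2 fold change of -0.94 (edgeR adjusted p = 0.00118), but most of them are reads of Nlrp1a, so the sum says little about Nlrp1b.

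Nlrp3, the sensor of potassium efflux and of many other signs of cell stress (chromosome 11, 59541568 to 59566956, plus strand), had 22.2, 29.8, 29.0 and 26.6 CPM in new AML. In aggressive AML it had 14.9, 19.1, 26.1 and 20.8 CPM. The aggressive AML libraries tended to hold less, but replicate 3 of that group lay within the range of new AML. The log2 fold change was -0.41 (SE 0.16, 95% confidence interval -0.75 to -0.08), with an unadjusted p = 0.0184 in edgeR and an adjusted p = 0.0789. Without aggressive AML replicate 3 it was -0.55, with an edgeR adjusted p = 0.0148, which passes the threshold. The adjusted p was between 0.0570 and 0.210 in edgeR when any other library was left out.

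Nlrc4, which joins NAIP proteins that bind bacterial flagellin or parts of the type III secretion system (chromosome 17, 74425438 to 74459142, minus strand), had 27.4, 28.1, 25.0 and 31.7 CPM in new AML. In aggressive AML it had 22.3, 23.2, 25.3 and 26.6 CPM. The groups overlapped, and the log2 fold change of -0.20 (SE 0.11, 95% confidence interval -0.45 to 0.04) did not pass the test (edgeR adjusted p = 0.237). The interval reaches past the fold change of Gsdmd given below, so Nlrc4 was not shown to be equal in the groups.

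Pycard encodes the adaptor ASC, whose polymers appear as the ASC speck (chromosome 7, 127989708 to 127993867, minus strand). It had 115, 107, 136 and 114 CPM in new AML and 105, 111, 104 and 104 CPM in aggressive AML. The aggressive AML libraries lay close together, and all 4 were within or just below the range of new AML. The log2 fold change was -0.16 (SE 0.08, 95% confidence interval -0.34 to 0.02, edgeR adjusted p = 0.211). An exon of Gm45205 overlaps Pycard on the opposite strand, and since the strand setting of the counting was not stated, reads of these genes could not be told apart there.

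Casp1, the protease at the center of the pathway (chromosome 9, 5298517 to 5307265, plus strand), had 63.4, 72.2, 79.8 and 75.6 CPM in new AML. In aggressive AML it had 59.5, 56.9, 68.3 and 57.7 CPM, and only replicate 3 exceeded the lowest new AML library. The log2 fold change was -0.26 (SE 0.10, 95% confidence interval -0.47 to -0.06), with an unadjusted p = 0.0143 in edgeR and an adjusted p = 0.0665. The call for Casp1 depended on single libraries, since it was made without new AML replicate 1 (log2 fold change -0.32, edgeR adjusted p = 0.0378) and without aggressive AML replicate 3 (-0.32, adjusted p = 0.0247).

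Casp4 lies directly downstream of Casp1 on the same strand (5308828 to 5336783). Its levels were 11.2, 9.16, 18.3 and 15.3 CPM in new AML and 9.52, 11.1, 14.4 and 10.5 CPM in aggressive AML. The spread within new AML was larger than the difference between the groups, and the log2 fold change of -0.25 (SE 0.21, 95% confidence interval -0.70 to 0.20) did not pass the test (edgeR adjusted p = 0.439). The balance of the caspases was compared within each library as the log2 ratio of Casp4 to Casp1 counts. It was -2.50, -2.97, -2.12 and -2.30 in new AML and -2.64, -2.36, -2.24 and -2.46 in aggressive AML, so that Casp4 counts were 12.7% to 22.9% of Casp1 counts in new AML and 16.0% to 21.1% in aggressive AML. The means of -2.47 ± 0.37 and -2.42 ± 0.17 (SD, n = 4 each) differed by 0.05, which was less than the spread between replicates (two-sided exact permutation p = 0.857 over 70 choices, of which the smallest possible is 0.0286).

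Gsdmd, the substrate of both caspases (chromosome 15, 75862327 to 75867408, plus strand), had 121, 114, 134 and 135 CPM in new AML and 115, 109, 89.7 and 96.3 CPM in aggressive AML. The highest aggressive AML library exceeded the lowest new AML library by about 1 CPM, and the others were apart. Gsdmd fell from 126 ± 10.2 CPM to 102 ± 11.6 CPM (SD, n = 4 each), or to 81.3% of its level in new AML. Its log2 fold change was -0.30 (SE 0.09, edgeR adjusted p = 0.0362). This call was lost when 1 of 5 libraries was left out: the edgeR adjusted p was 0.0543 without new AML replicate 1, 0.0765 without replicate 3 and 0.104 without replicate 4 of that group. Without aggressive AML replicates 3 and 4 it was 0.0792 and 0.0842, each left out alone. The log2 fold change of Gsdmd stayed between -0.36 and -0.24 throughout.

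**Figure D2:**
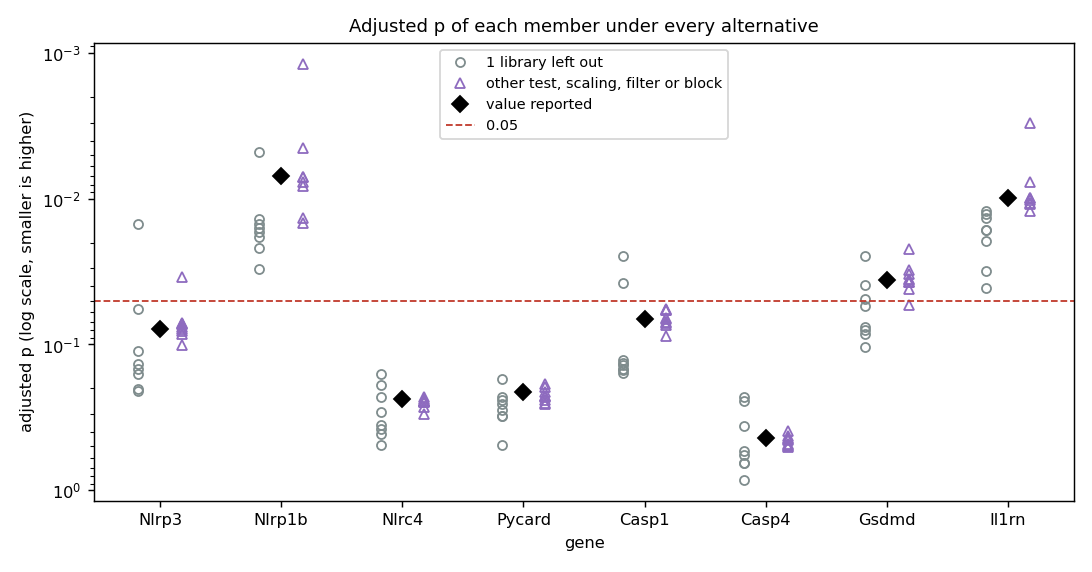
Adjusted p of each member (log axis, smaller values higher) as reported (diamonds), with 1 library left out (circles) and with another test, scaling, filter or replicate block (triangles), against the threshold of 0.05 (dashed line). All values of Nlrp1b and Il1rn, which were not tested under the filter of at least 5 CPM, lie past the threshold, all of Nlrc4, Pycard and Casp4 fall short of it, and those of Nlrp3, Casp1 and Gsdmd lie on both sides.

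Il1rn encodes the IL-1 receptor antagonist, which occupies the receptor of IL-1α and IL-1β without signalling (chromosome 2, 24336853 to 24351494, plus strand). It had 22, 20, 25 and 42 counts in the new AML libraries, or 2.26, 2.38, 2.79 and 4.68 CPM. In aggressive AML it had 11, 6, 2 and 11 counts, or 1.33, 0.707, 0.259 and 1.25 CPM. All 4 aggressive AML libraries lay below all 4 new AML libraries, and the lowest held no more than 2 reads of the gene. Il1rn fell from 3.03 ± 1.13 CPM to 0.886 ± 0.501 CPM (SD, n = 4 each), or to 29.3% of its level in new AML. Its log2 fold change was -1.74 (SE 0.42, edgeR adjusted p = 0.00986). It was the largest fold change among the 8 members, and it was called when any 1 library was left out. Il1rn passed the filter of 1 CPM in 4 libraries only through new AML, since the aggressive AML libraries at 0.707 and 0.259 CPM fell short of 1 CPM. A ratio of the antagonist to Il1b could not be formed, since Il1b was not analysed here.

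Promoter sequences of RefSeq (GRCm38.p6, 250 bases before to 50 bases after a transcription start) were found for 7 of the 8 members, in 12 windows. They were searched on both strands for 3 motifs, the ISRE (GAAANNGAAA) bound by interferon-activated factors, the GAS motif (TTCNNNGAA) bound by STAT dimers, and the kappaB motif bound by NF-kappaB. The ISRE was in 0 of the 12 windows, where 3.44% of 32851 windows of all genes hold it. The GAS motif was also in 0, where 8.30% of all windows hold it. Some of the 12 windows overlap, and with so few of them neither count of 0 is a result about the members. The kappaB motif was in 5 windows of 3 members, Nlrp3, Casp4 and Il1rn, and in 19.5% of all windows. The 2 windows of Casp4 overlap and hold the same matches, as do the 2 of Il1rn, so these 5 windows are not separate places and their share was not set against that of all windows. A match is a description of the letters and not a site of binding. Windows of Nlrp1b and Il1rn are shown because these are the members whose groups did not overlap. For each, the window at the 5′ start of the gene is printed, and for Il1rn also the first of the windows at a downstream start, because it holds a kappaB match. Capitals mark this match, which begins 29 bases after that start. None of the 3 motifs was found in the other windows printed, nor in the second window of Nlrp1b, which is not printed.
Nlrp1b (chr11:71230684-71230983, minus strand): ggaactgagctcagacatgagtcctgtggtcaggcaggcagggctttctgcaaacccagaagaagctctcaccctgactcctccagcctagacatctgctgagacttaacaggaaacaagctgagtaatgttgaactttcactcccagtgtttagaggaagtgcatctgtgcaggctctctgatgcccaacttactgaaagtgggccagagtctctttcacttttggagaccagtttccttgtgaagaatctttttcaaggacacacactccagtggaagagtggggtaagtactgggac
Il1rn (chr2:24336610-24336909, plus strand): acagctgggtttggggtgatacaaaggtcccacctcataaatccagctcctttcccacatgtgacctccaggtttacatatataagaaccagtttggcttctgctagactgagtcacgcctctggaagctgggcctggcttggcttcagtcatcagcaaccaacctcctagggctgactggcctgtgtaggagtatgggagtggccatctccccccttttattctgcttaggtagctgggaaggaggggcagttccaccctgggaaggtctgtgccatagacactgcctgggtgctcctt
Il1rn (chr2:24345041-24345340, plus strand): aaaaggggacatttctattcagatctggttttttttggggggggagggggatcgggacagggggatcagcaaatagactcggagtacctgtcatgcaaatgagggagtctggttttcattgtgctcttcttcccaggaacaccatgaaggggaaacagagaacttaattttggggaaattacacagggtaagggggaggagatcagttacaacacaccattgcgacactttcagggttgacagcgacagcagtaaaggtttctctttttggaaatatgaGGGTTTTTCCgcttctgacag

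Genes of the interferon response and markers of maturing myeloid cells differed between the same libraries, and their values are given beside those of the members. Of 25 tested interferon response genes, 22 were lower and 0 higher in aggressive AML, where 10.2% of all tested genes were lower and 8.15% higher. Their summed level ranged from 978 to 1558 CPM in new AML, highest in replicate 3, and from 587 to 667 CPM in aggressive AML. Of 12 neutrophil markers 8 were lower and 0 higher, with sums of 329 to 496 CPM in new AML and 171 to 222 CPM in aggressive AML. The defining neutrophil marker Ly6g was at or below 2.85 CPM in every library. Of 6 tested macrophage markers 2, Csf1r and Adgre1, were lower, the 7 measured ones summed to 350 to 450 CPM in new AML and 199 to 264 CPM in aggressive AML, and C1qc was at or below 1.34 CPM in every library. Among markers of other cells, 2 of 7 erythroid markers were lower, 1 of 2 NK cell markers (Nkg7) was higher, and the single tested marker each of T cells, B cells and megakaryocytes did not pass the test. Their part in the results on the members was not tested. The call of Nlrp1b (log2 fold change -1.48, edgeR adjusted p = 0.0138) and that of Il1rn (-1.78, adjusted p = 0.0165) were also made without new AML replicate 3, the library highest in interferon response genes. That library is 1 of the 5 without which Gsdmd lost its call, and the log2 fold change of Gsdmd without it was -0.27, against -0.30 with all libraries. Without that library, the interferon response genes still summed to 978 to 1148 CPM in new AML, above every aggressive AML library. Leaving it out therefore does not test the part of these genes.

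**Figure D3:**
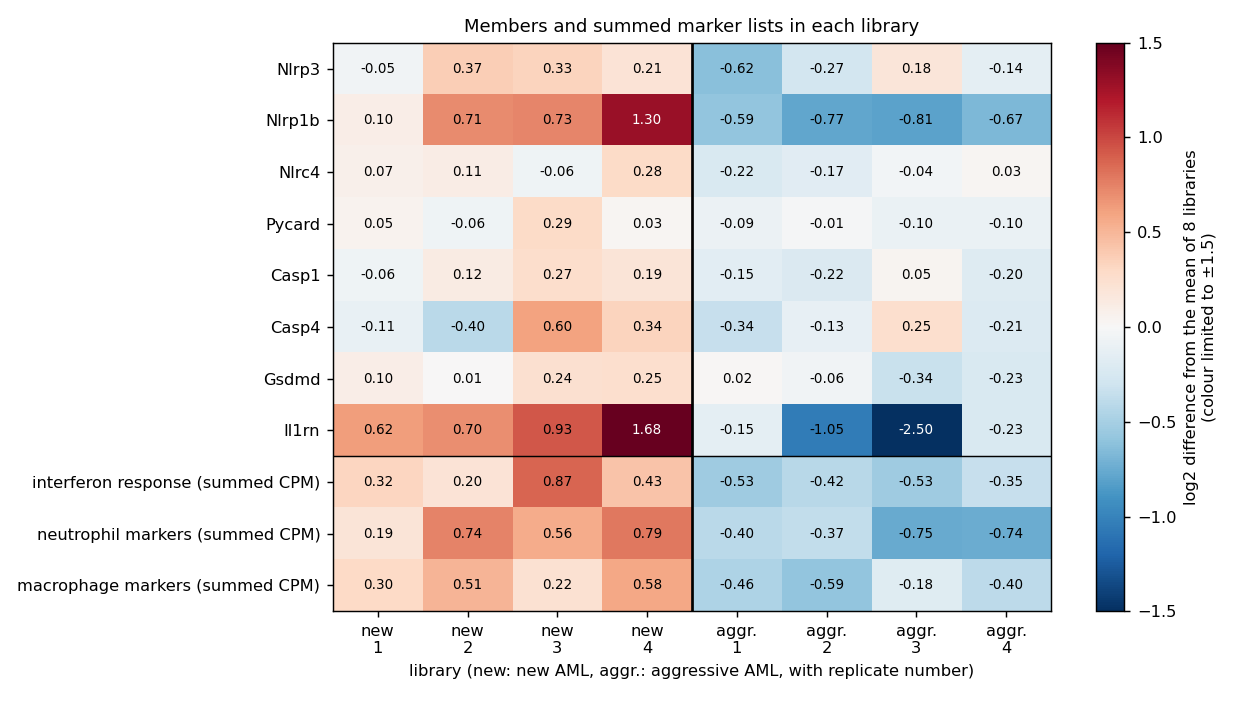
Log2 difference of each member's CPM, and of the summed CPM of the interferon response, neutrophil and macrophage lists, from the mean of the 8 libraries, with 1 column per library and colors limited to ±1.5. Nlrp1b, Il1rn and the 3 lists are above 0 in all new AML libraries and below 0 in all aggressive AML libraries, while Nlrp3, Casp1 and Casp4 are above 0 in aggressive AML replicate 3 (0.18, 0.05 and 0.25).

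A wider set of 59 genes of the pathway was examined in 5 lists, of which 49 genes were tested. Of these, 9 were lower and 7 higher in aggressive AML, 33 were not called, and the median log2 fold change was -0.08. Of all tested genes, 10.2% were lower and 8.15% higher, and these shares also stand beside the counts of each list below. A count of 1 in these small lists is near the shares and is not a result about a list. Of 9 tested sensors, 2 were lower and 1 was higher. Besides Nlrp1a, the pyrin gene Mefv, whose product responds to bacterial inactivation of RhoA, fell from 156 ± 10.2 CPM to 95.3 ± 6.19 CPM (SD, n = 4 each), with a log2 fold change of -0.71 (SE 0.08, edgeR adjusted p = 2.48e-05) and no overlap. Naip1, which passes the signal of a type III secretion needle protein to Nlrc4, rose from 1.07 ± 0.524 CPM to 3.54 ± 1.86 CPM (log2 fold change 1.70, edgeR adjusted p = 0.0202). The groups overlapped, since aggressive AML replicate 1 had 9 counts (1.08 CPM), within the new AML range of 0.357 to 1.56 CPM. Naip1 is also uncertain because 32.5% of the stretches of 50 bases in its transcript are shared with other Naip genes. Its adjusted p in edgeR was 0.0524 without new AML replicate 1, 0.0624 without replicate 2 of that group and 0.0535 without aggressive AML replicate 3. The DNA sensor Aim2 had a log2 fold change of 0.09 (edgeR adjusted p = 0.608).

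Of 15 tested regulators, 5 were lower and 0 higher. P2rx7, the ATP-gated channel that opens the potassium efflux sensed by Nlrp3, had 11.7, 18.3, 12.6 and 18.4 CPM in new AML and 3.25, 3.89, 4.41 and 5.69 CPM in aggressive AML. Its groups were far apart, with a log2 fold change of -1.82 (SE 0.22, edgeR adjusted p = 5.3e-05), or 28.3% of its level in new AML. Dpp9, which restrains Nlrp1, had a log2 fold change of -0.34 (edgeR adjusted p = 0.0322), and leaving out any 1 of 5 libraries (new AML replicates 1 and 2, aggressive AML replicates 1, 3 and 4) raised its adjusted p to between 0.0573 and 0.112. The guanylate-binding protein genes Gbp2 and Gbp5 and the nucleic acid sensor gene Zbp1, all of which are known interferon targets, were lower too, with log2 fold changes of -2.24, -2.96 and -2.27 (edgeR adjusted p = 0.0404, 0.00209 and 0.00247). New AML replicate 3 stood apart in each of the 3. Without it, Gbp2 had a log2 fold change of -0.54 and an edgeR adjusted p = 0.329, Gbp5 one of -2.05 (adjusted p = 0.00251) and Zbp1 one of -1.45 (adjusted p = 0.000674). The call of Gbp2 was also lost without any 1 of the 4 aggressive AML libraries (edgeR adjusted p = 0.0540 to 0.105). Gbp5 passed the filter of 1 CPM in 4 libraries only through new AML, since it was at 0.471 and 0.907 CPM in aggressive AML replicates 2 and 3. Nek7, the kinase that binds Nlrp3, and Casp8 had log2 fold changes of -0.23 and -0.21 (edgeR adjusted p = 0.0754 and 0.0674) and were not called.

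Of 5 tested effectors beside Gsdmd, 0 were lower and 2 higher. These were the neutrophil serine proteases Elane and Ctsg. Ctsg rose from 1407 ± 144 CPM to 2005 ± 148 CPM (SD, n = 4 each), with a log2 fold change of 0.51 (SE 0.08, edgeR adjusted p = 0.000636). Elane rose by a log2 fold change of 0.52 (edgeR adjusted p = 0.0205), but its adjusted p was 0.0660 and 0.0566 without new AML replicates 1 and 2 and 0.0718 without aggressive AML replicate 1. The pore-forming Gsdme (0.07, edgeR adjusted p = 0.834) and Ninj1, which ruptures the membrane after pore formation (-0.08, adjusted p = 0.563), were not called.

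Of 8 tested ligands and receptors of the IL-1 family, 1 was lower and 3 were higher. Il1a, Il36a, Il36g and the receptor genes Il1r1 and Il18r1 were not analysed here. The cytokine gene Il33 rose (log2 fold change 1.24, edgeR adjusted p = 0.0242) and its receptor gene Il1rl1 fell (-1.51, adjusted p = 0.0200), both from levels under 3 CPM in every library. Each passed the filter of 1 CPM in 4 libraries only through the group where it was higher. Il1rl1 was at 0.361 to 0.797 CPM in aggressive AML, and Il33 was at 0.719 and 0.669 CPM in new AML replicates 1 and 4. These calls are therefore not independent of the filter. Il1r2, a decoy receptor for IL-1, rose from 4.67 ± 0.390 CPM to 8.45 ± 2.53 CPM (SD, n = 4 each), with a log2 fold change of 0.85 (SE 0.23, edgeR adjusted p = 0.0179) and no overlap. Il1r2 and Il1rn, both of which restrain IL-1 signalling, thus moved in opposite directions. Il18rap, a subunit of the IL-18 receptor, rose by a log2 fold change of 0.52 (SE 0.13, edgeR adjusted p = 0.0104). Single libraries decided some of these calls: the edgeR adjusted p of Il33 was 0.0698 and 0.0739 without new AML replicates 1 and 4 and 0.0592 without aggressive AML replicate 4. That of Il1rl1 was 0.0567 without new AML replicate 3 and 0.0575 and 0.0502 without aggressive AML replicates 1 and 2, and that of Il1r2 was 0.0501 without new AML replicate 2.

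Of the 12 genes that signal downstream of the IL-1 receptor, 1 was lower and 1 higher. Irak4, the first kinase of the pathway, fell from 49.3 ± 3.56 CPM to 34.6 ± 5.26 CPM (SD, n = 4 each), with a log2 fold change of -0.51 (SE 0.12, edgeR adjusted p = 0.00727) and no overlap. One of its exons overlaps Twf1 on the opposite strand. Traf6, a ubiquitin ligase, rose by a log2 fold change of 0.34 (edgeR adjusted p = 0.0483), but its adjusted p was between 0.0924 and 0.136 when new AML replicate 2, 3 or 4 or aggressive AML replicate 1 or 3 was left out. The adaptor gene Myd88 had a log2 fold change of -0.18 (edgeR adjusted p = 0.208).

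**Figure D4:**
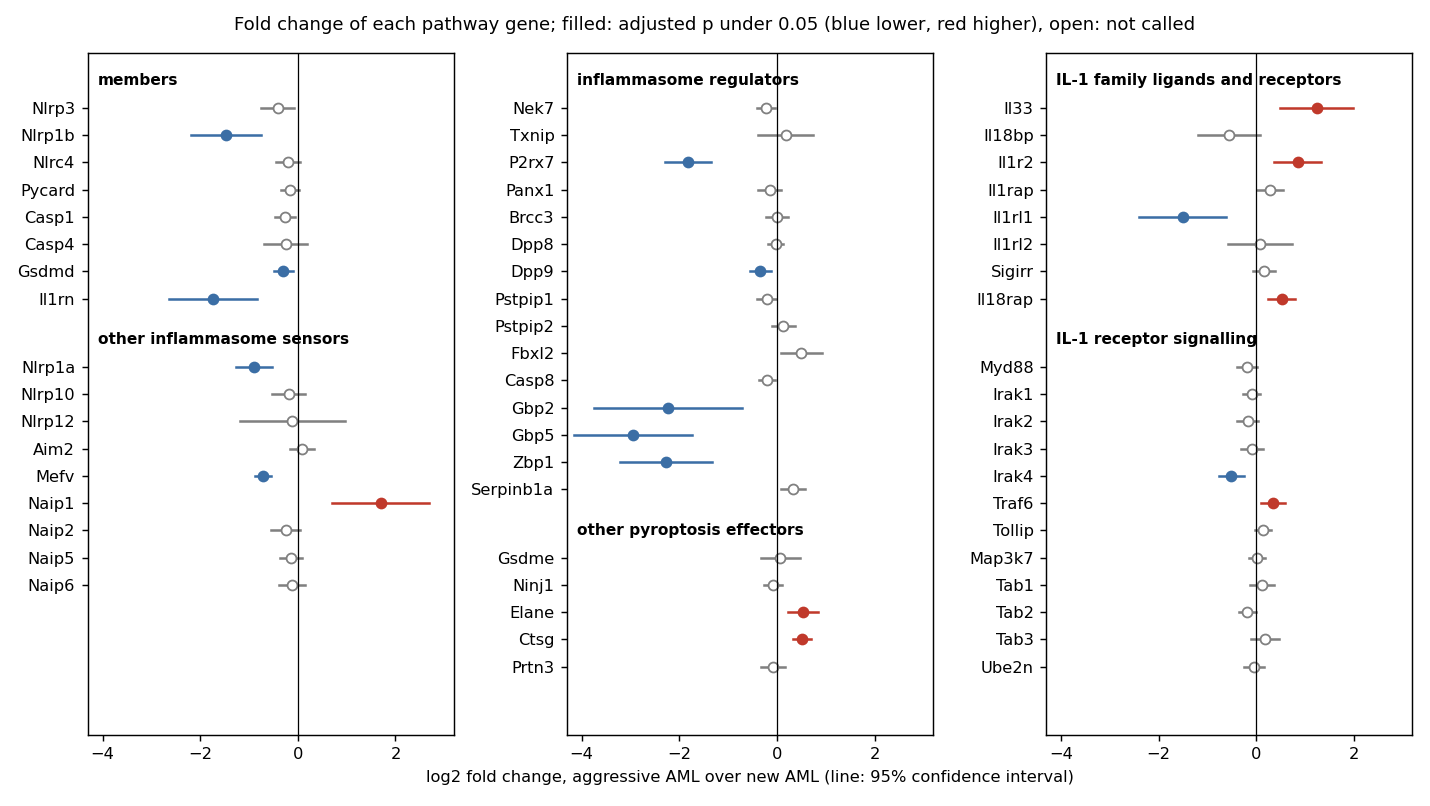
Log2 fold change of aggressive AML over new AML (points) with its 95% confidence interval (lines) for the 8 members and the 49 other pathway genes tested. Filled points have an adjusted p under 0.05, with lower genes in blue (3 members and 9 others) and higher genes in red (7 others and 0 members), and open points were not called.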

How the data were processed

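Gene expression was measured by RNA-seq in 4 new AML and 4 aggressive AML libraries, grouped by the sample labels. According to the study's methods, the authors aligned paired-end reads of polyadenylated RNA to mm10 with HISAT2, obtained gene counts with Rsubread and removed genes under 1 CPM. The gene annotation and strand setting of the counting are not given in the sources used here. Although CPM is in the name of the deposited table, it holds whole numbers whose totals differ between libraries (7805544 to 9697777), and these were treated as raw counts.

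Rows reaching 1 CPM in 4 or more of 8 libraries were tested (12494 of 12823). In edgeR (version 4.0.16, under R 4.3.3), the quasi-likelihood test was used with TMM scaling, the group as the sole term, two-sided p-values and Benjamini-Hochberg adjustment over all tested genes. The common biological coefficient of variation was 0.118. CPM values are TMM-scaled, and a negative log2 fold change means a lower level in aggressive AML. Alternatives were DESeq2 (version 1.42.0), limma (version 3.58.1) on log2(CPM + 1) and with voom, other scalings and filters, each library left out, and the replicate number as a block. The ratio of Casp4 to Casp1 used a pseudocount of 0.5 and an exact permutation test. The edgeR test was tried on simulated counts with known changes, and the other steps were not. Replicates differed beyond sampling noise in every pair (chi-square per degree of freedom 4.12 to 11.2).

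The members and all gene lists were chosen with earlier results of these data known. By rule, the genes named are the members, Nlrp1a, the called genes of the 5 wider lists and defining markers. Aim2, Nek7, Casp8, Gsdme, Ninj1 and Myd88 were named after their values were seen, as genes that did not pass the test. Genes that were not analysed are named without values. Gsdme is listed under its older symbol Dfna5. Positions and transcripts came from GENCODE (GRCm38, the build mm10) and promoters from RefSeq.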

Additional observations from a re-analysis of the deposited data

Results flagged for a closer look

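Of 50 groups of 4 values tested among the named genes, 4 had a library far from the other three by Dixon's criterion, where chance gives about 1 in 20. Pycard was at 111 CPM in aggressive AML replicate 2, above the other libraries of its group, with a gap of 0.867 of the group's range, although the whole range of Pycard there was narrow. New AML replicate 3 accounted for the remaining 3. In that library Gbp2 was at 47.6 CPM, Gbp5 at 27.0 CPM and Zbp1 at 32.6 CPM, each far above the other new AML libraries. The same library had the highest summed level of interferon response genes, at 1558 CPM. Its part in these values was not tested.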

How the results depend on the processing

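The number of members called lower was 3 as reported, with DESeq2, both limma tests, other scalings, no filter and the replicate block. It was 1 of 6 tested members with a filter of at least 5 CPM in 4 libraries, which left out Nlrp1b and Il1rn, and it ranged from 2 to 4 when 1 library was left out. The difference of the Casp4 to Casp1 log2 ratio ranged from -0.115 (without new AML replicate 2) to 0.168 (without new AML replicate 3) and was -0.0096 without aggressive AML replicate 3, so that its sign is not known. Over 24 named genes and all alternatives that gave an adjusted p, 355 of 400 values kept their direction and side of the threshold, 4 gained a call, 41 lost one and 0 reversed. With all libraries kept, the call of Naip1 was lost with limma-voom, that of Elane with DESeq2, that of Gbp2 with both limma tests and that of Traf6 with both limma tests and without TMM. DESeq2 gave no adjusted p for Gbp2, so Gbp2 was not called there either. On the log2(CPM + 1) scale of limma, which understates changes of low genes, the log2 fold change of Il1rn was -1.10 (adjusted p = 0.00765). With the replicate block, Nlrp3 was called (log2 fold change -0.43, edgeR adjusted p = 0.0345) and Gsdmd was not (-0.30, adjusted p = 0.0535). The numbers do not pair the libraries, since the deviations of same-numbered libraries correlated at 0.02, -0.12, -0.07 and 0.35 over 5000 genes and not every library correlated best with its own number. A planned ratio of Il1rn to Il1b was not run because Il1b was not analysed here. With 2 to 42 counts per library, Nlrp1b and Il1rn are limited by depth, and their fold changes are known only within wide intervals (-2.18 to -0.75 and -2.63 to -0.84 on the log2 scale).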
